A study of Mus musculus with 12 samples.

Results

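Transcripts of the matricellular matrix proteins were followed across cultured fibroblasts from mouse fat. The genes were taken from a list of 9 symbols: Postn, Thbs1, Thbs2, Spon1, Spon2, Dpt, Tnc, Sparc and Spp1. The list was chosen with earlier results of these data known. All probe sets that carried 1 of these symbols in the platform annotation were taken, which gave 12 probe sets for 8 of the 9 genes, out of 22626 probe sets and 12393 genes on the arrays. Thbs1, Thbs2, Spon1 and Sparc had 2 probe sets each and the other 4 genes had 1. A further probe set was annotated to both Pald1 and Thbs1 and was not used. Spp1, which encodes osteopontin, had no annotated probe set and was not analysed here.

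The cells were fibroblasts grown from the stromal vascular fraction of fat, the part that is left when the fat cells have been removed. All 12 samples came from male Zfp423-GFP transgenic mice, 6 to 8 weeks old, on an FVB and C57BL/6 background. Cells positive or negative for green fluorescent protein (GFP), taken from inguinal fat (subcutaneous) or from epididymal fat (abdominal), were grown in DMEM/F12 with serum and collected before their growth stopped. How the GFP+ and GFP- cells were separated is not given in the sources used here. There were 3 arrays for each of 4 groups: GFP+ and GFP- cells of the inguinal depot, and GFP+ and GFP- cells of the epididymal depot. Runs of 4 group values below keep this order. GFP reports Zfp423, a zinc-finger protein that primes fibroblasts to become fat cells, and the GFP- cells carry the transgene too. No label says how many animals were pooled or that replicates came from separate cultures, so p-values rest on differences among these samples alone, which can be technical, and the number of arrays limits the precision.

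Matricellular proteins are secreted into the extracellular matrix but do little to hold it up. They bind collagens, growth factors, proteases and cell surface receptors, and so change how cells attach to the matrix and respond to it. Many of them are scarce in resting adult tissue and abundant in development, wound repair and fibrosis, and fibroblasts in culture are known to make several of them at high levels. In fat, thrombospondin 1, tenascin C, SPARC and osteopontin have been linked to the remodelling of the tissue in obesity.

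The labelled cell type was checked first. All 10 fibroblast markers examined, among them Pdgfra, Lum, Thy1 and the type I collagen genes, were above the limit of weak detection in each group, and their summed signal lay between 169162 and 179669 on the 12 arrays. Single fibroblast markers did move. In the inguinal GFP comparison 5 of 10 were called (4 higher and 1 lower), and in the epididymal one 8 (5 higher and 3 lower). Group means ran from 122 to 2396 for Lum and from 2717 to 16871 for Dcn. As background for these and the marker counts below, 12.6% of all genes were called in the inguinal comparison (5.26% higher and 7.29% lower). In the epididymal one 41.9% were called (21.5% higher and 20.3% lower). Weak detection means a mean in the lowest 30% of genes, under a signal of 77.7. Markers of other cells moved with the groups. Of 15 mesothelial markers 12 were measured, and 11 of these were lower in epididymal GFP+ than GFP- cells while none was higher. Their summed signal was 45870 to 47870 in epididymal GFP-, 9990 to 10397 in epididymal GFP+, 2447 to 2606 in inguinal GFP- and 2518 to 2819 in inguinal GFP+ cells. Of 20 macrophage and leukocyte markers 19 were measured, and 13 were lower in inguinal GFP+ than GFP- cells, with none higher. Their summed signal was 11968 to 14082 in inguinal GFP- cells against 2514 to 2781 in inguinal GFP+, 3287 to 3382 in epididymal GFP+ and 3694 to 4068 in epididymal GFP- cells. For 15 mural and myofibroblast markers the 4 group ranges were 128535 to 134220, 152225 to 153467, 184102 to 187011 and 144127 to 145695. Of the mural markers, 2 were higher and 9 lower in GFP+ cells in the inguinal cultures, and 7 higher and 3 lower in the epididymal cultures. No marker of these lists was listed at 0. Of the 12 mesothelial markers 8 and 7 were weakly detected in inguinal GFP+ and GFP- cells, Msln, Upk3b and Wt1 among them, against 1 (Krt7) and 0 in epididymal GFP+ and GFP- cells. Krt19 ran the other way, with group means of 1292, 1186, 191 and 216, and Krt7 means were 564, 148, 56.1 and 1830. Of the 15 mural markers 3 (Rgs5, Abcc9 and Kcnj8) were weakly detected in all 4 groups and the other 12 in none, Mcam and Cspg4 included. The part of these cells in the results below was not tested, and in bulk RNA fewer cells of a type and less RNA per cell cannot be told apart.

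Most of the 8 measured genes of the list were higher in GFP+ than in GFP- cells. Because earlier results of these data were known when the list was chosen, its counts beside all genes do not test matricellular genes as a class. In the inguinal cultures Dpt and Spon1 rose 5.46-fold and 4.19-fold, and Thbs2, Tnc and Postn rose by 0.53 or less on the log2 scale. In the epididymal cultures Spon1, Thbs2, Postn and Dpt rose between 2.27-fold and 8.96-fold. In inguinal cultures 5 of 8 genes were called higher in GFP+ cells and none lower (limma, adjusted p under 0.05), against a background of 12.6% of all genes called, 5.26% upward and 7.29% downward. In epididymal cultures 7 of 8 were called higher and none lower, against 41.9% of all genes called, 21.5% upward and 20.3% downward. Calls of at least 2-fold were made for 2 of 8 genes in inguinal (1.36% of all genes) and 4 of 8 in epididymal cultures (6.79%). The median log2 difference of the 8 genes was 0.21 in inguinal and 0.92 in epididymal cultures, beside -0.011 and 0.011 for all genes. The arrays of GFP+ and GFP- cells did not overlap for 5 of 8 genes in the inguinal and 7 of 8 in the epididymal cultures, and this was so for 28.7% and 50.0% of all genes. Counted by probe set, 6 of 12 were called higher and none lower in inguinal cultures (10.5% of all probe sets called, 4.24% higher and 6.23% lower), and 9 of 12 higher and none lower in epididymal cultures (38.1%, 19.1% higher and 19.0% lower). All differences are on the scale of log2(signal + 16), which understates the change of genes with low signal. The 2 comparisons share no arrays, but the depot comparisons further below reuse the same arrays.

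**Figure D1:**
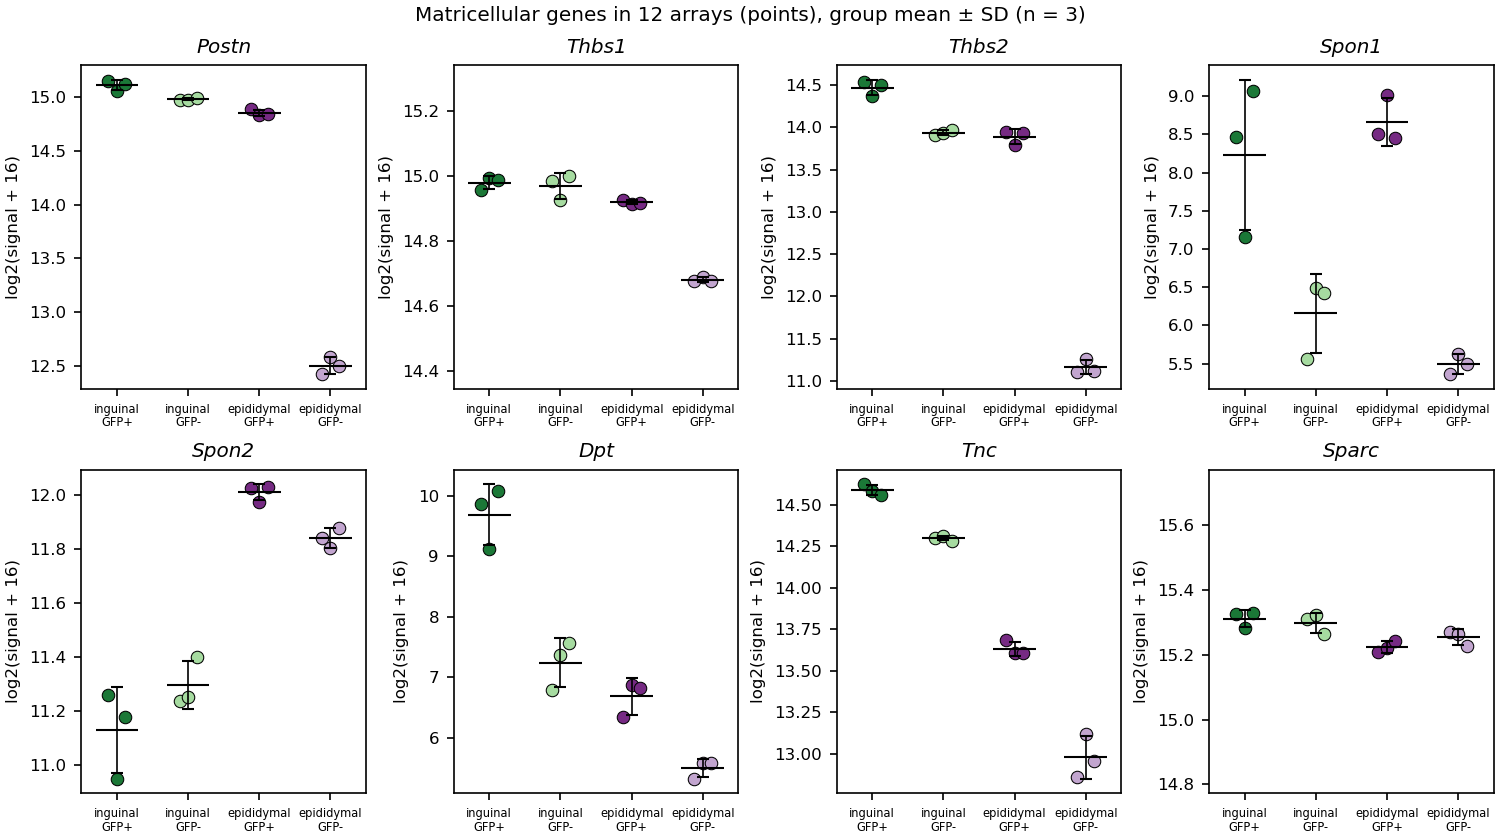
Signal of the probe set that stands for each gene, as log2(signal + 16), in the 4 groups of 3 arrays. Points are arrays, and bars give the group mean and SD; each panel has its own axis, which does not start at 0. Postn and Thbs2 fall away in epididymal GFP- cells alone, Dpt stands highest in inguinal GFP+ cells, and the Sparc points lie close together in all groups.

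Thrombospondins are large glycoproteins of the matrix. Thbs1 and Thbs2 encode the closely related pair that binds CD47 and CD36, restrains the growth of blood vessels and, in the case of thrombospondin 1, activates latent TGF-beta. Thbs2 had the second largest epididymal GFP difference of the list, after Spon1. Its signal on the 3 arrays was 23841, 21106 and 23119 in inguinal GFP+, 15387, 15606 and 16062 in inguinal GFP-, 15779, 14116 and 15600 in epididymal GFP+, and 2190, 2438 and 2204 in epididymal GFP- cells. Inguinal GFP+ cells stood highest, inguinal GFP- and epididymal GFP+ cells overlapped, and every epididymal GFP- array lay far below all others. The log2 difference between GFP+ and GFP- cells was 2.73 ± 0.051 (SE; adjusted p = 5.07e-16, limma) in epididymal and 0.53 ± 0.051 (adjusted p = 2.25e-06) in inguinal cultures. The second Thbs2 probe set, 1450663_at, gave 2.60 and 0.39. Both probe sets were called in both depots.

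Thbs1 moved far less than Thbs2, and its probe sets differed in size. Probe set 1460302_at, which stood for the gene, read 31830, 32642 and 32470 in inguinal GFP+, 32442, 31121 and 32796 in inguinal GFP-, 31140, 30874 and 30920 in epididymal GFP+, and 26152, 26404 and 26190 in epididymal GFP- cells. Epididymal GFP- cells were again the lowest group, with no overlap, while both inguinal groups overlapped. Its epididymal difference was 0.24 ± 0.022 (adjusted p = 1.31e-07, limma) and its inguinal difference 0.009 ± 0.022 (adjusted p = 0.862; 95% interval -0.037 to 0.055). The second, 1450377_at, read 26369, 24984 and 25192 in inguinal GFP+ and 24221, 24709 and 24279 in inguinal GFP- cells. In epididymal cells it read 21503, 19980 and 18933 in GFP+ and 12807, 13475 and 13940 in GFP- cells. Here the groups fell in the same order without any overlap between neighbours, the inguinal difference was 0.064 ± 0.040 (adjusted p = 0.4), and the epididymal difference was 0.59 ± 0.040 (adjusted p = 6.57e-09, over all probe sets). With the mean of both probe sets in place of the first, the epididymal difference of Thbs1 became 0.41 (adjusted p = 2.66e-09).

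Periostin, the product of Postn, binds collagen I, fibronectin and tenascin C and brings lysyl oxidase to collagen through BMP1. Postn read 36416, 34130 and 35748 in inguinal GFP+, 32199, 32218 and 32527 in inguinal GFP-, 30354, 29195 and 29359 in epididymal GFP+, and 5468, 6134 and 5772 in epididymal GFP- cells. The first 3 groups lay close together, though without overlap, and epididymal GFP- cells were set apart at 5791 ± 334 (SD, n = 3) against 29636 ± 627 in epididymal GFP+ cells. The epididymal difference was 2.35 ± 0.035 (adjusted p = 4.55e-17, limma), a 5.11-fold change. The inguinal difference was 0.13 ± 0.035 (adjusted p = 0.0189), a 1.10-fold change, and that call did not survive the loss of replicate 1 (adjusted p = 0.0937) or replicate 3 (0.059) of the GFP+ arrays, of replicate 1 (0.0637) or replicate 2 (0.0628) of the GFP- arrays, or of the variance trend (0.117).

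Tenascin C, encoded by Tnc, is a hexameric glycoprotein that loosens the attachment of cells to fibronectin and is made in wounds and around tumours. Tnc read 25214, 24504 and 24116 in inguinal GFP+, 20185, 20342 and 19929 in inguinal GFP-, 13140, 12475 and 12476 in epididymal GFP+, and 7432, 8866 and 7940 in epididymal GFP- cells. No neighbouring groups in that order overlapped. GFP+ cells exceeded GFP- cells by 0.29 ± 0.046 (adjusted p = 0.000376, limma) in inguinal and 0.65 ± 0.046 (adjusted p = 5.56e-09) in epididymal cultures. Every epididymal array was below every inguinal array.

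Spondins carry thrombospondin-type repeats and were first studied in the developing nervous system. Spon1, F-spondin, was high in GFP+ cells of both depots on probe set 1451342_at. Its signal was 338.5, 126.1 and 520.8 in inguinal GFP+, 31.3, 74.0 and 69.96 in inguinal GFP-, 346.3, 502.0 and 333.0 in epididymal GFP+, and 25.1, 33.4 and 29.0 in epididymal GFP- cells. All 6 GFP+ arrays were above all 6 GFP- arrays, both GFP- groups were weakly detected, and the inguinal GFP+ arrays were widely spread (328 ± 198, SD). The differences were 2.07 ± 0.36 (adjusted p = 0.000962, limma) in inguinal and 3.16 ± 0.36 (adjusted p = 2.29e-06) in epididymal cultures. The other Spon1 probe set, 1424415_s_at, did not repeat this. It read between 56.6 and 98.6 on the 6 inguinal arrays, 147.9, 119.0 and 121.8 in epididymal GFP+ and 71.4, 101.5 and 89.6 in epididymal GFP- cells. Its differences were 0.14 ± 0.19 (adjusted p = 0.759) and 0.50 ± 0.19 (adjusted p = 0.0509), neither of them called over all probe sets. The epididymal one passed under several alternatives, such as quantile normalization (0.49, adjusted p = 0.046) and a pseudocount of 64 (0.36, adjusted p = 0.0325). The mean of both probe sets gave 1.10 (adjusted p = 0.0129) and 1.83 (adjusted p = 4.51e-05).

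Spon2, mindin, is a small secreted spondin known in mice as a ligand of integrins on immune cells. It was the only measured member that was lower in inguinal than in epididymal cells in both GFP fractions with a call. Its signal was 2436, 1962 and 2305 in inguinal GFP+, 2400, 2421 and 2689 in inguinal GFP-, 4154, 4011 and 4161 in epididymal GFP+, and 3650, 3556 and 3750 in epididymal GFP- cells. Every epididymal array exceeded every inguinal array, and the inguinal fractions overlapped. The inguinal GFP difference was -0.17 ± 0.063 (adjusted p = 0.106, limma; adjusted p = 0.029 without inguinal GFP+ replicate 1, at -0.23). The epididymal difference of 0.17 ± 0.063 passed with an adjusted p of 0.0405, and leaving out any 1 of the 6 epididymal arrays ended that call (adjusted p from 0.0535 to 0.119), as did median centring (0.0958) and a fit without variance trend (0.112).

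Dermatopontin, encoded by Dpt, is a small tyrosine-rich matrix protein that binds decorin and collagen and speeds the assembly of collagen fibrils. Dpt read 920.9, 543.6 and 1067 in inguinal GFP+, 94.96, 150.2 and 173.1 in inguinal GFP-, 65.0, 101.7 and 97.9 in epididymal GFP+, and 24.1, 32.2 and 32.1 in epididymal GFP- cells. Inguinal GFP+ cells were above all other arrays, inguinal GFP- and epididymal GFP+ cells overlapped, and epididymal GFP- cells were weakly detected. The inguinal difference was 2.45 ± 0.24 (adjusted p = 3.3e-06, limma) and the epididymal difference 1.18 ± 0.24 (adjusted p = 0.000785). With a pseudocount of 64 in place of 16 the epididymal difference became 0.70 (adjusted p = 0.00849).

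SPARC, also called osteonectin or BM-40, binds collagen and calcium, acts as a chaperone for collagen and limits adhesion. Its signal stood near the top of the scale, at group means of 89.5%, 89.6%, 89.5% and 90.5% of the largest value on the array. Sparc read 41039, 39813 and 41149 in inguinal GFP+, 40598, 40961 and 39300 in inguinal GFP-, 37862, 38141 and 38773 in epididymal GFP+, and 39539, 39356 and 38304 in epididymal GFP- cells. Neighbouring groups overlapped throughout. The GFP difference was 0.014 ± 0.022 (adjusted p = 0.786, limma; 95% interval -0.034 to 0.061) in inguinal and -0.030 ± 0.022 (adjusted p = 0.319; interval -0.077 to 0.017) in epididymal cultures. After median centring the epididymal difference was called at -0.067 (adjusted p = 0.0257). The second Sparc probe set, 1448392_at, gave -0.031 and 0.009, with no call.

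**Figure D2:**
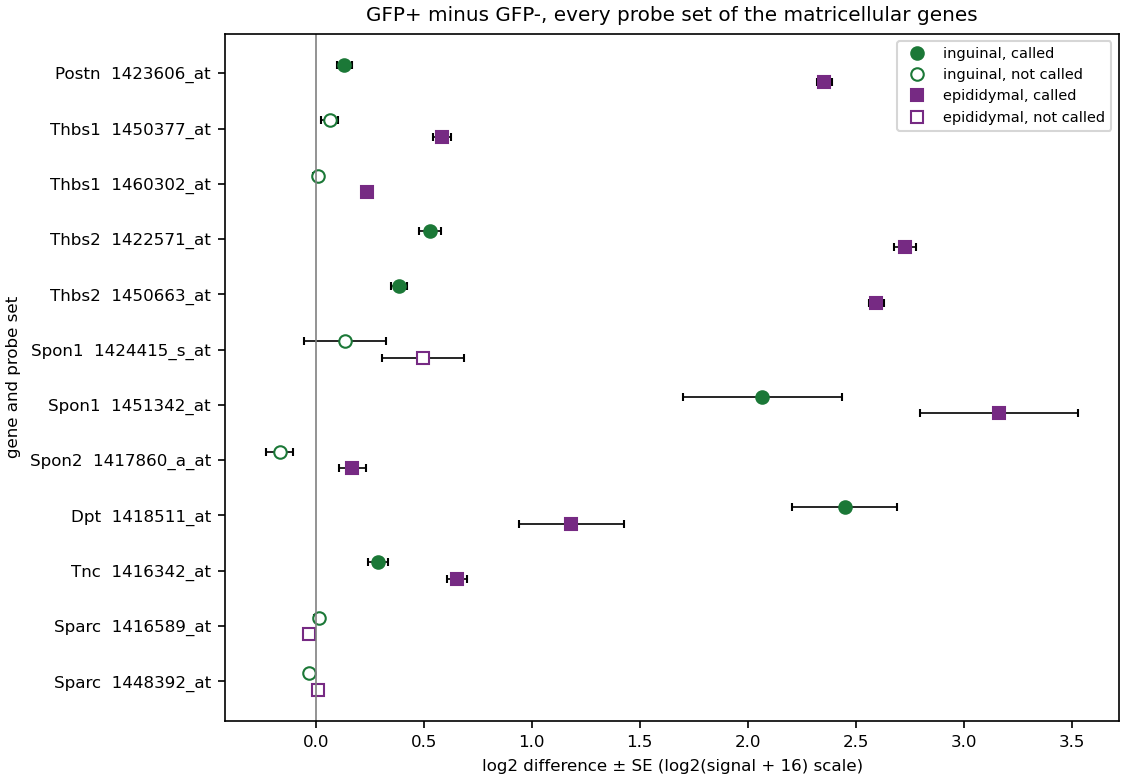
Log2 difference between GFP+ and GFP- cells for each of the 12 probe sets, in inguinal (circles) and epididymal cultures (squares), with SE as bars; filled symbols were called over all 22626 probe sets. Both Thbs2 probe sets lie together near 0.5 and 2.7, the Spon1 probe sets lie apart, and both Sparc probe sets lie at 0.

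The start regions of Thbs2, Postn and Tnc, which were called higher in GFP+ cells of both depots, are shown beside that of Sparc, which was called in neither. RefSeq (GRCm38.p6) gave such windows, from 250 bases before to 50 bases after an annotated start, for 5 of the 8 measured genes. Dpt, also called higher in GFP+ cells of both depots, was the fifth and is not printed. There were none for Thbs1, Spon1 or Spon2. Postn and Tnc had 2 windows each, at different starts, of which 1 is printed. The other windows, chr3:54359017-54359316 for Postn and chr4:64046966-64047265 for Tnc, are placed on the outer end of the gene. The printed ones are placed on a start further inside it. Sequences run 5′ to 3′, and capitals mark matches to TATAAA (the TATA box) or CAGACA (a SMAD box) on either strand, so that TTTATA and TGTCTG are the same motifs on the other strand.
Thbs2, chr17:14694213-14694512, minus strand: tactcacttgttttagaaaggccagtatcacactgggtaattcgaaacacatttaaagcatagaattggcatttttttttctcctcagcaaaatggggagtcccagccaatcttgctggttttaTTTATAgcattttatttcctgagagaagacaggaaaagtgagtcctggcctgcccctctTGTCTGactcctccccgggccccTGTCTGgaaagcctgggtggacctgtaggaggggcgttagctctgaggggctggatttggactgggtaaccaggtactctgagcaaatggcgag
Postn, chr3:54360857-54361156, plus strand: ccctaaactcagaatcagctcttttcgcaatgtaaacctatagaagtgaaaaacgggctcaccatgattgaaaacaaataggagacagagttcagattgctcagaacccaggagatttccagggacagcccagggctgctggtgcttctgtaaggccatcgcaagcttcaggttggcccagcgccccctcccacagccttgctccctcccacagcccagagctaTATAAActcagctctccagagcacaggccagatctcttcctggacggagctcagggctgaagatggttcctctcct
Tnc, chr4:64046887-64047186, minus strand: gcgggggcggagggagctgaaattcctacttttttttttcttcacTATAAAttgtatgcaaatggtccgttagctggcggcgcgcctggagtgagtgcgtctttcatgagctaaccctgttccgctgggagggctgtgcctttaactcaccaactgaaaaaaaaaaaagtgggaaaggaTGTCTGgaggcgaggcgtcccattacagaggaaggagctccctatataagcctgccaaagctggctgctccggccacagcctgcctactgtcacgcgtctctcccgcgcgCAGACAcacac
Sparc, chr11:55420031-55420330, minus strand: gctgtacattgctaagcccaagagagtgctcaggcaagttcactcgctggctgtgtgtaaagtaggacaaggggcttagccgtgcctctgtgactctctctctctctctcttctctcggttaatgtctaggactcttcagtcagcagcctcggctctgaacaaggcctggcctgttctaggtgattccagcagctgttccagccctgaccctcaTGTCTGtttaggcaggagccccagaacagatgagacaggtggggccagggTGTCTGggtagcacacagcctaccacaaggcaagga
The printed Postn window held TATAAA 26 bases before its start and no CAGACA, and the other Postn window held no match. Positions below are of the first printed base of a match, counted from the start. The Thbs2 window held TATAAA on the other strand at -126 and 2 copies of CAGACA at -67 and -44. The printed Tnc window held TATAAA at -205 and 2 copies of CAGACA at -71 and 39. The Sparc window held 2 copies of CAGACA at -36 and 14, and no TATAAA. The Dpt window held TATAAA at 12, after the start, and no CAGACA. The other Tnc window overlaps the printed one and held TATAAA at -126 and CAGACA at 8. Only exact matches were marked, so tatataag in the printed Tnc window was not. Within a window none of these matches overlapped another. Across all 32851 windows 13.6% held TATAAA and 21.0% held CAGACA on either strand. The EBF core CCCNNGGGA (6.56% of windows), the AP-1 site TGANTCA (7.81%) and the TEAD site GGAATG (14.7%), which were also searched on both strands, were not among the letters of the 7 windows of the 5 genes. A match is a description of the sequence and not a site.

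The GFP difference was compared between depots in the same fit, as the inguinal minus the epididymal difference. It was called for 6 of 8 genes, 5 lower and 1 higher in the inguinal cultures, against 34.8% of all genes called (18.7% lower and 16.1% higher), and for 8 of 12 probe sets, 7 lower and 1 higher, against 30.5% (16.2% and 14.3%). For 3 of 8 genes it was called at 2-fold or more, as for 7.96% of all genes. Postn (-2.22 ± 0.049, adjusted p = 1.65e-14) and Thbs2 (-2.20 ± 0.072, adjusted p = 1.18e-12) differed most. Tnc (-0.37), Spon2 (-0.34) and Thbs1 (-0.23, or -0.52 ± 0.056 on its second probe set, adjusted p = 2.49e-06) followed, and Dpt went the other way (1.27 ± 0.34, adjusted p = 0.00835). Over all probe sets the Dpt call was lost with a pseudocount of 1 (1.04, adjusted p = 0.0556). Spon1 was not called (-1.09 ± 0.51, adjusted p = 0.12; 95% interval -2.19 to 0.0) but passed without inguinal GFP+ replicate 3 (-1.51, adjusted p = 0.0168). The interval for Sparc ran from -0.023 to 0.111, and after median centring Sparc was called at 0.12 (adjusted p = 0.00826).

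Between depots, the list was mostly higher in inguinal cells, and more so in the GFP- fraction. In GFP+ cells 6 of 8 genes were called higher and 1 lower in inguinal than epididymal cells, against 50.8% of all genes called (23.6% higher and 27.2% lower), and 1 of 8 was called at 2-fold or more (5.77% of all genes). In GFP- cells 5 were called higher and 1 lower, against 53.7% (27.4% and 26.3%), and 4 at 2-fold or more (10.4%). The arrays of the depots did not overlap for 7 of 8 genes in GFP+ and 6 of 8 in GFP- cells, with 56.0% and 61.1% of all genes as background. By probe set, 8 of 12 were called higher and 2 lower in GFP+ cells (47.1% of all probe sets called, 22.4% and 24.7%) and 7 higher and 1 lower in GFP- cells (49.7%, 25.6% and 24.1%). Dpt led in GFP+ cells, at 3.01 ± 0.24 (adjusted p = 4.45e-08, limma), where Tnc gave 0.95, Thbs2 0.58, Postn 0.26 and Spon2 -0.88. In GFP- cells Thbs2 (2.78 ± 0.051, adjusted p = 2.24e-16) and Postn (2.48 ± 0.035, adjusted p = 1.25e-17) led, with Dpt at 1.74, Tnc at 1.32 and Spon2 at -0.54. The GFP+ differences of Thbs1 (0.061, adjusted p = 0.0275) and Sparc (0.088, adjusted p = 0.00356) were small, and after quantile normalization they became -0.012 (adjusted p = 0.712) and 0.031 (adjusted p = 0.201). The second Sparc probe set gave -0.020 in GFP+ cells (adjusted p = 0.402) and the mean of both gave 0.034 (adjusted p = 0.132), neither called. On the second Thbs1 probe set the depot differences were larger, 0.34 ± 0.040 in GFP+ cells (adjusted p = 3.8e-06) and 0.86 ± 0.040 in GFP- cells (adjusted p = 3.72e-11), against 0.29 in GFP- cells on the first. The first also lost its GFP+ call without a variance trend (adjusted p = 0.127) and when replicate 2 or 3 of the GFP+ arrays of either depot was left out (0.0661 to 0.071). For Spon1 the depot differences were -0.43 ± 0.36 in GFP+ and 0.67 ± 0.36 in GFP- cells (adjusted p = 0.361 and 0.138), and the second passed once replicate 1 of the inguinal GFP- arrays was dropped (0.97, adjusted p = 0.0483) or once replicate 2 of the inguinal GFP+ arrays was (0.67, adjusted p = 0.0267). The other Spon1 probe set was called lower in inguinal GFP+ cells (-0.61 ± 0.19, adjusted p = 0.0157) and gave -0.25 ± 0.19 in GFP- cells (adjusted p = 0.317), the opposite sign to the first. Its GFP+ call was lost after quantile normalization (adjusted p = 0.0813), and when replicate 2 of the inguinal (0.0813) or replicate 1 of the epididymal GFP+ arrays (0.0659) was left out.

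**Figure D3:**
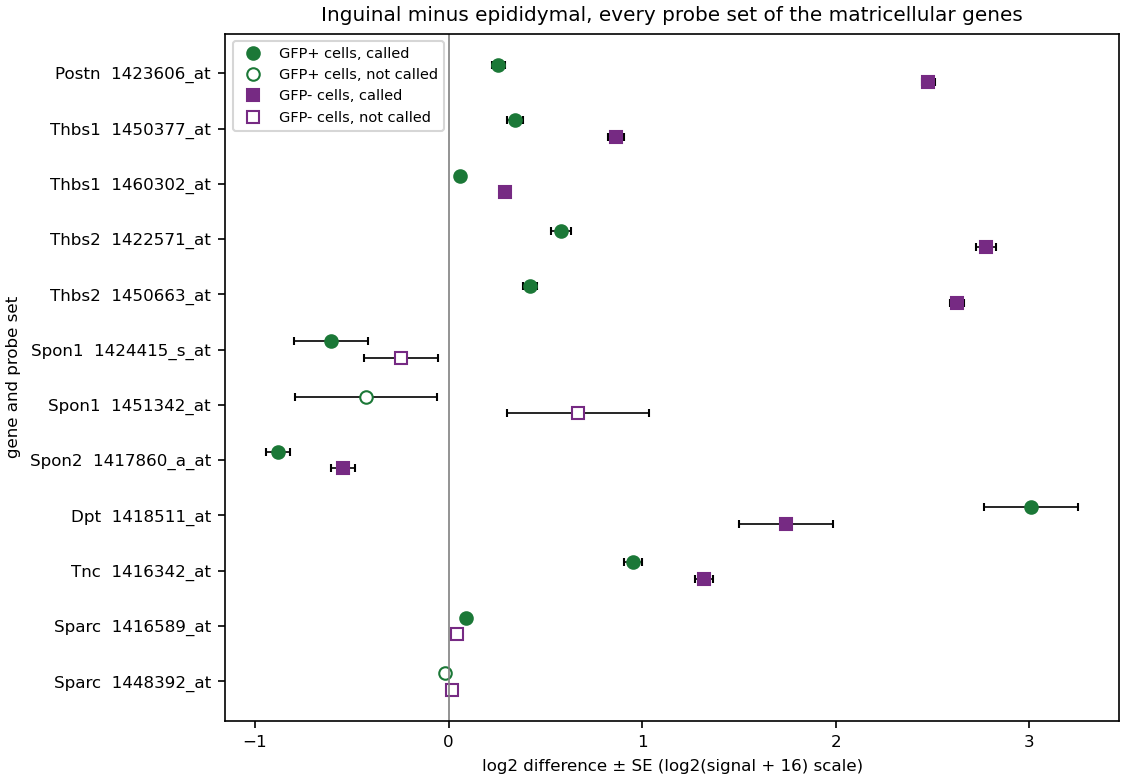
Log2 difference between inguinal and epididymal cells for each of the 12 probe sets, in GFP+ (circles) and GFP- cells (squares), with SE as bars; filled symbols were called over all 22626 probe sets. Postn and Thbs2 lie between 2.4 and 2.8 in GFP- cells and below 0.6 in GFP+ cells, and Spon2 lies below 0 in both.

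Sparc, Thbs1 and Postn lay at the bright end of the arrays, where fewer probe sets of any gene were called. The largest value on an array lay between 42435 and 46213. Postn stood at 78.0%, 71.9%, 69.3% and 13.4% of it in the 4 groups, and Thbs1 probe set 1460302_at at 71.2%, 71.5%, 72.4% and 60.8%. Of the 69 probe sets on the array with a mean of at least 70% of the maximum, 0 were called in the inguinal and 14 (20.3%) in the epididymal GFP comparison, and the largest size among them was 0.14. Of the 2083 probe sets between 10% and 30%, 472 (22.7%) and 1364 (65.5%) were called, and sizes reached 5.77. Postn and Thbs1 probe set 1460302_at fell by their means over all arrays in the band from 50% to 70%. Of its 190 probe sets 10 (5.26%) and 63 (33.2%) were called, and the largest epididymal difference was that of Postn. Below 10%, among probe sets not weakly detected, 13.1% and 50.8% were called. The second Thbs1 probe set, at 56.2%, 54.3%, 47.1% and 31.1% of the maximum, gave an epididymal difference of 0.59 against 0.24 for the first. Whether signal near the top of the scale narrows the differences of Sparc, Thbs1 and Postn was not tested.

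**Figure D4:**
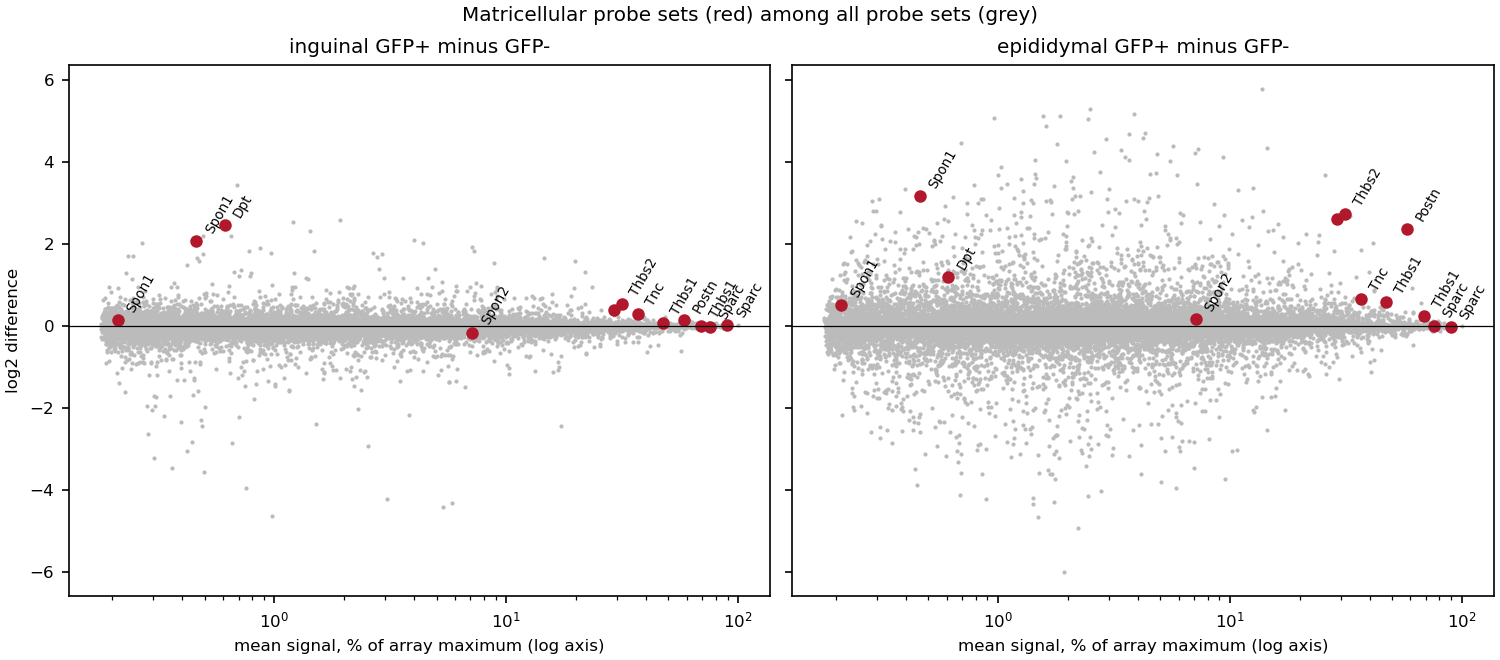
Log2 difference between GFP+ and GFP- cells (vertical axis) against the mean signal as a percentage of the largest value on its array (horizontal log axis), for the probe sets of the list (red; the 2 of Thbs2 share a label) and all others that were not weakly detected (grey). The spread of grey points narrows toward the right, where both Sparc probe sets, 1 of the Thbs1 probe sets and Postn lie.

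Among the list itself, Postn and Thbs2 had the most similar patterns over the 12 arrays after Thbs1 and Sparc, which both varied little. The measure was the root-mean-square difference of log2 values, each gene centred on its own mean: 0.25 between Postn and Thbs2 and 0.12 between Thbs1 and Sparc, where Postn itself varied by 1.08 and Thbs1 by 0.12. Over all 9168 other genes whose highest group mean was not weakly detected, the nearest to Postn were Chst1 (0.11), a carbohydrate sulfotransferase, and Gpx3 (0.14), the secreted glutathione peroxidase, and the nearest to Thbs2 were Dnmt3l (0.17) and again Gpx3 (0.19). Gpx3 means were 10602, 7780, 7293 and 1443 in the 4 groups. For Tnc they were Tpbg (0.095) and Lrig1 (0.11), for Spon1 Cyp7b1 (0.48) and Dpep1 (0.51), for Dpt the chemokine gene Ccl8 (0.39) and fibrillin 2, Fbn2 (0.65), and for Spon2 Ankzf1 and Slc25a15 (0.087 each). The nearest to Thbs1 were the chaperone gene Hspa5 (0.028) and Vmp1 (0.029), and to Sparc the ribosomal protein genes Rpsa (0.014) and Rpl27 (0.018), all of them bright genes that varied little.

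Of 30 further matricellular genes and relatives 26 were measured. In inguinal cultures 5 were called higher and 6 lower in GFP+ cells, and in epididymal cultures 10 higher and 8 lower, with medians of -0.028 and 0.098, beside 12.6% and 41.9% of all genes called and all-gene medians of -0.011 and 0.011. Smoc1, a relative of SPARC, read 577 ± 101 in inguinal GFP+, 1714 ± 160 in inguinal GFP-, 1308 ± 76.2 in epididymal GFP+ and 578 ± 19.2 in epididymal GFP- cells. It fell in GFP+ cells of one depot (-1.55, adjusted p = 2.13e-08, limma) and rose in those of the other (1.16, adjusted p = 4.89e-08). Ccn5, a CCN protein that opposes growth of smooth muscle, did likewise, with -0.53 (adjusted p = 3.23e-06) in inguinal and 2.58 (adjusted p = 1.29e-15) in epididymal cultures, and group means of 7252, 10430, 2127 and 342. Ccn3 rose by 3.10 (adjusted p = 6.24e-09) and Emilin1, an elastic fibre protein, by 1.15 (adjusted p = 8.88e-11) in epididymal GFP+ cells, while Fbln5, which organises elastin, fell in both depots (-0.35, adjusted p = 2.61e-07, and -0.99, adjusted p = 7.69e-14). Group means of Ccn3 were 3813, 2294, 751 and 73.6, and it was weakly detected in epididymal GFP- cells. Fbln1, a fibulin and one of the fibroblast markers, rose in GFP+ cells by 0.79 in inguinal (adjusted p = 0.0014) and 1.35 in epididymal cultures (adjusted p = 9.75e-07).

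The nearest relatives of the listed genes were looked up by family after their values had been seen. Tgfbi, the paralogue of Postn, did not follow it: means were 1536 ± 358, 1591 ± 163, 99.6 ± 12.01 and 387 ± 113 in the 4 groups, with an epididymal difference of -1.77 ± 0.18 (adjusted p = 6.69e-07, limma). Of the other thrombospondins, Thbs3 rose by 0.85 ± 0.077 in epididymal GFP+ cells (adjusted p = 1.41e-07) and gave -0.11 (adjusted p = 0.448) in inguinal cells. Thbs4 and Comp were not called in either GFP comparison, with Thbs4 means between 49.4 and 63.6 and Comp means between 40.7 and 82.3. Sparcl1, the SPARC paralogue, was weakly detected in 3 groups and rose to 84.1 ± 11.8 in epididymal GFP+ from 26.1 ± 13.5 in epididymal GFP- cells (1.30, adjusted p = 0.000447).

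Of 26 receptors for matricellular proteins 24 were measured. In inguinal cultures 3 were called higher and 7 lower in GFP+ cells, and in epididymal cultures 9 higher and 4 lower, with medians of -0.056 and 0.004, beside the same 12.6% and 41.9% of all genes. Itga9, the alpha 9 integrin chain that binds tenascin C and osteopontin, read 3461 ± 25.0 in epididymal GFP+ and 184 ± 12.2 in epididymal GFP- cells, a difference of 4.12 ± 0.053 (adjusted p = 1.27e-17, limma), and 1086 ± 47.8 and 1445 ± 16.1 in the inguinal fractions. Itgb5, whose product pairs with alpha v to bind periostin, rose by 1.10 ± 0.035 in epididymal GFP+ cells (adjusted p = 3.1e-13) and Lrp1, the endocytic receptor for thrombospondins, by 0.51 (adjusted p = 1.5e-10). Itga3 fell from 3131 ± 138 in epididymal GFP- to 467 ± 20.4 in epididymal GFP+ cells (-2.70, adjusted p = 4.19e-14), and Ptprz1, a receptor phosphatase that binds tenascins, fell in both depots (-0.54, adjusted p = 1.54e-05, and -1.87, adjusted p = 5.4e-13). The leukocyte integrin chain Itgb2 fell by 2.98 in inguinal GFP+ cells (adjusted p = 3.42e-08), from 379 ± 46.3 to 34.2 ± 7.48, beside the macrophage markers given above. The thrombospondin receptors differed in detection: Cd36 lay between 14.5 and 45.4 in the group means, under the limit of weak detection, and Cd47 between 3087 and 4232, rising by 0.40 in epididymal GFP+ cells (adjusted p = 1.81e-06). Within that weak signal Cd36 was called lower in inguinal GFP+ than GFP- cells (-0.97, adjusted p = 0.0201). Its call was lost under several alternatives, such as the mean of its probe sets (-0.72, adjusted p = 0.0645). Cd44, the osteopontin receptor, was higher in inguinal than epididymal GFP+ cells (0.95, adjusted p = 7.26e-10).

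**Figure D5:**
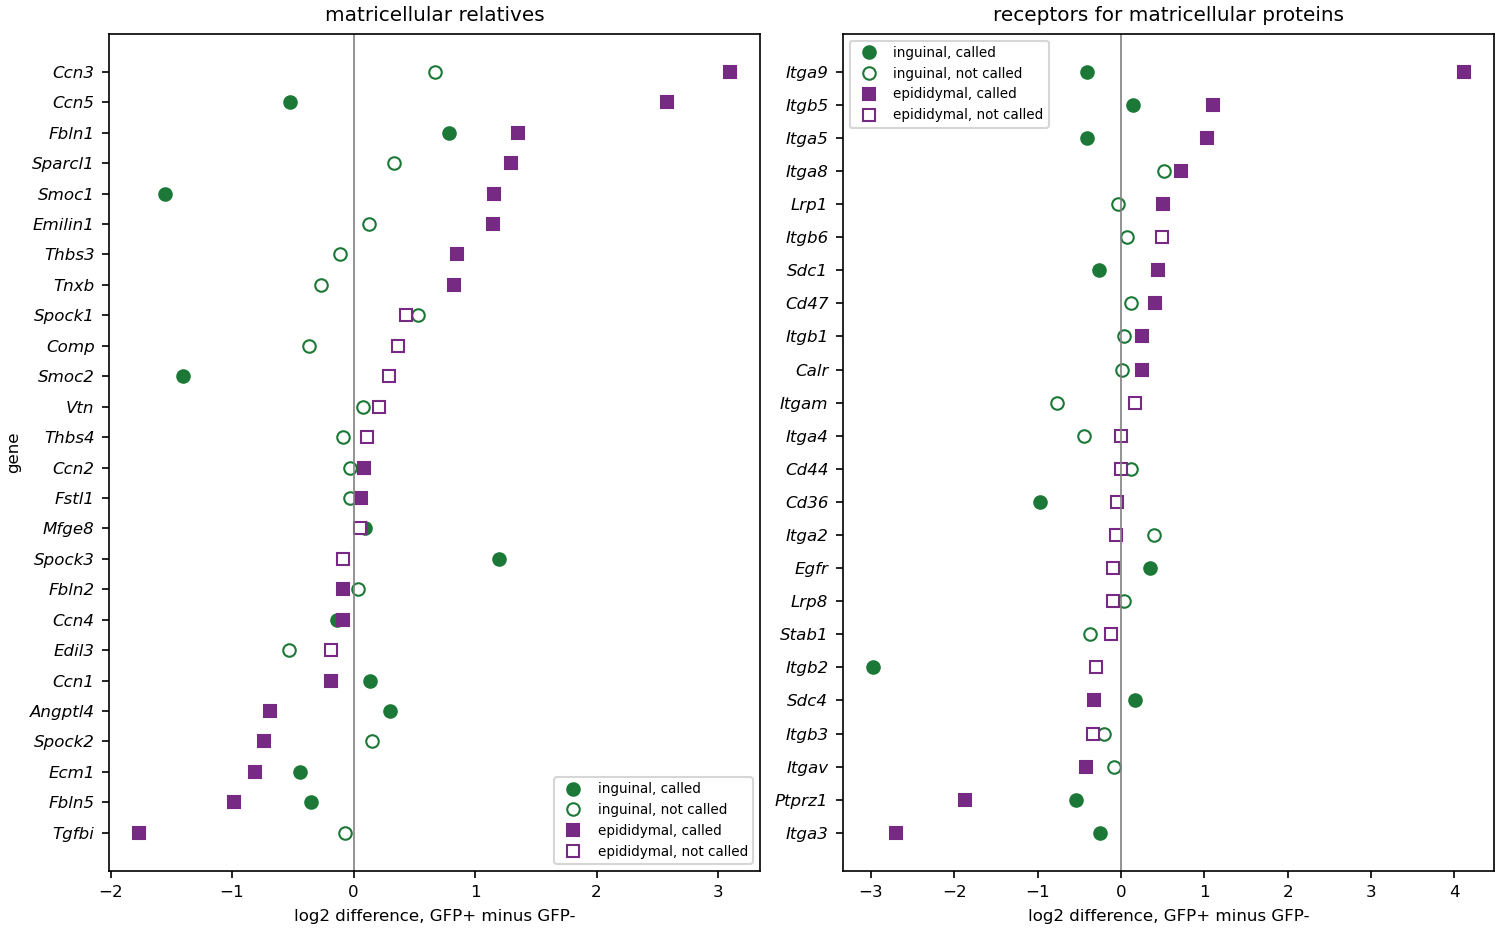
Log2 difference between GFP+ and GFP- cells for the 26 measured relatives (left) and 24 measured receptors (right), in inguinal (circles) and epididymal cultures (squares), sorted by the epididymal value; filled symbols were called over all 12393 genes. Smoc1, Ccn5 and Itga9 lie on opposite sides of 0 in the depots, and Tgfbi and Itga3 lie lowest in the epididymal cultures.

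Of 27 partners of these proteins in the matrix and its processing 25 were measured. In inguinal cultures 4 were called higher and 5 lower in GFP+ cells, and in epididymal cultures 15 higher and 5 lower, with medians of -0.012 and 0.082, again beside 12.6% and 41.9% of all genes. In epididymal GFP+ cells the rises included Fmod, the collagen-binding proteoglycan fibromodulin (1.59, adjusted p = 2e-10, limma), Col5a1, a chain of the collagen that starts fibrils (0.88, adjusted p = 8.4e-13), and Bmp1, the protease that binds periostin and trims procollagen (0.78, adjusted p = 5.17e-11). Bmp1 was lower in inguinal GFP+ than GFP- cells (-0.25, adjusted p = 0.000234), a call lost with the mean of its probe sets (-0.13, adjusted p = 0.406). Tgfb3, a TGF-beta ligand, fell in both depots (-0.88, adjusted p = 7.34e-09, and -0.43, adjusted p = 2.38e-06), and Col6a1 rose by 0.49 in inguinal and fell by 1.13 in epididymal GFP+ cells (adjusted p = 0.00348 and 1.3e-07). Decorin, Dcn, the proteoglycan that dermatopontin binds, rose in inguinal GFP+ cells (0.95 ± 0.17, adjusted p = 0.000928) and gave -0.12 ± 0.17 in epididymal cultures (adjusted p = 0.622). Between depots Dcn ran opposite to Dpt, with inguinal minus epididymal differences of -1.56 in GFP+ (adjusted p = 1.13e-06) and -2.64 in GFP- cells (adjusted p = 1.12e-09).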

How the data were processed

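RNA was measured on 12 Affymetrix arrays, 3 for each of 4 groups taken from the sample labels. The authors deposited 1 linear intensity per probe set and array. Per the labels' protocols, RNA was taken up in Trizol, cleaned on RNeasy columns and made into biotinylated cRNA. How the signal was computed, background-corrected and scaled is not given in the sources used here. Medians of the arrays lay between 347.3 and 371.2, and no further normalization was applied.

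The platform annotation gave 1 symbol for 20380 of 22626 probe sets, several for 691 and none for 1555. Older symbols were replaced by current ones, matched on Entrez identifier in the RefSeq GRCm38.p6 table. Intensities were transformed to log2(intensity + 16). The probe set with the highest mean stood for its gene (12393 genes), and a second fit used every probe set. Groups were compared with limma 3.58.1 in R 4.3.3 (lmFit, eBayes with a trend, all 12 arrays) and Benjamini-Hochberg adjustment over all genes or all probe sets at 0.05. The fit was tested on simulated data. The 95% intervals come from the same fit. Replicate numbers were not used to pair the samples in this fit. Deviations of same-numbered arrays gave no sign of pairing, which does not exclude it.

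The listed genes, the gene lists and the tests were chosen with earlier results of these data known. Named genes are the members; from each list and comparison up to 3 called genes per direction with the smallest adjusted p, of which the text gives a part chosen after the values were seen; and for each member the 2 genes of most similar pattern. Further relatives and receptors were added after the values were seen, namely Smoc1 in the epididymal comparison, Tgfbi, Thbs3, Thbs4, Comp, Sparcl1, Cd36 and Cd47. Lists of endothelial and epithelial markers were also counted. In epididymal cultures 3 of 12 and 0 of 8 were called higher in GFP+ cells and 2 and 2 lower, beside 41.9% of all genes called. In inguinal cultures 2 and 0 were called higher and 1 and 0 lower, beside 12.6% of all genes. Alternatives changed the normalization (quantile, median centring), the pseudocount (64 or 1), the filter on weak genes, the summary of probe sets (their mean), the fit (replicate block, no variance trend, compared groups alone), the threshold (0.01) and the arrays (1 left out at a time).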

Additional observations from a re-analysis of the deposited data

Results flagged for a closer look

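The difference between GFP+ and GFP- cells itself differed between the depots for 6 of the 8 measured matricellular genes (limma interaction, adjusted p under 0.05; 34.8% of all genes passed). The inguinal minus the epididymal log2 difference was -2.22 for Postn, -2.20 for Thbs2, -0.37 for Tnc, -0.34 for Spon2 and -0.23 for Thbs1, and 1.27 for Dpt. Among the relatives, it was -3.11 for Ccn5, -2.71 for Smoc1, -1.02 for Emilin1, 0.99 for Angptl4, 0.63 for Fbln5 and 0.32 for Ccn1. Among the receptors, it was -4.53 for Itga9, -0.95 for Itgb5, -0.70 for Sdc1, 2.45 for Itga3, 1.33 for Ptprz1 and 0.49 for Sdc4. The relatives and receptors are the 3 per direction with the smallest adjusted p in each list.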

How the results depend on the processing

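The number of listed genes called stayed within 1.5 times in every comparison and alternative run. Leaving out 1 array at a time gave 4 to 5 genes in the inguinal and 6 to 7 in the epididymal GFP comparison. Of 40 differences of the 8 genes in the 5 comparisons, 30 kept their call throughout, meaning called in the same direction or not called, as did 46 of 60 for single probe sets and 105 of 115 for relatives, receptors and partners. One call turned: Thbs1 between depots in GFP+ cells fell to -0.012 after quantile normalization, on the gene and the probe set scale. Sparc probe set 1448392_at turned from -0.020 to 0.059 (adjusted p = 0.0208) in the same comparison after median centring, and was called lower at -0.089 (adjusted p = 0.000534) after quantile normalization. The causes were not tested. Values called under neither setting changed sign in 4 of the 40 differences (2 of Sparc, 1 of Spon1 and 1 of Thbs1), in 8 of the 60 and in 6 of the 115, so these did not keep their direction. With the replicate number as a block (replicate block), 5 genes were called in the inguinal, 7 in the epididymal, 6 in the depot difference, 7 in the GFP+ and 6 in the GFP- comparison, the same numbers as without it; same-numbered arrays correlated between -0.057 and 0.044 in their deviations, so the numbers gave no sign of pairing. Differences of genes near the detection limit, Spon1 and Dpt, depend on the pseudocount, and signal over background limits them.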
